A study of Mus musculus with 12 samples.

Results

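The genotype by LPS interaction is the difference between the responses of Trpm5-/- and wild-type marginal zone B cells to lipopolysaccharide (LPS), gene by gene. For each gene the response was taken as the mean of LPS libraries minus the mean of unstimulated libraries on the log2(FPKM + 1) scale, in Trpm5-/- cells and in wild-type cells, and the interaction as the Trpm5-/- response minus the wild-type response. A value above 0 therefore marks a gene that rose more, or fell less, in Trpm5-/- cells. It was computed for the 10797 of 24346 gene symbols that reached at least 1 FPKM (fragments per kilobase of transcript scaled by library depth) in at least 2 of the 12 libraries of the series. The values entering it come from 8 of the 12 libraries. They are 2 of Trpm5-/- cells given LPS at 10 µg/mL for 4 h, 2 of Trpm5-/- cells left unstimulated for 4 h, 2 of wild-type cells given LPS, and 2 of wild-type cells left unstimulated. The other 4 libraries, of both genotypes treated for 4 h with anti-IgM (10 µg/mL), an antibody that cross-links the B cell receptor, served the spread estimate and one further comparison. The labels do not give the part of Trpm5 that is deleted, the strain or age of the mice, or whether the libraries within a group stem from different animals. The p-values thus rest on library-to-library spread alone, and that spread may be only technical.

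Marginal zone B cells sit at the edge of the splenic white pulp and respond fast to blood-borne microbial products. LPS is sensed by TLR4 with its partner MD-2 and activates NF-kB, MAP kinases and interferon regulatory factors, after which B cells grow and secrete cytokines. TRPM5 is a channel that opens when intracellular calcium rises and lets monovalent cations in, which depolarizes the cell and so can lower the driving force for calcium entry. The interaction asks which transcripts respond to LPS differently when that channel is missing.

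Trpm5 itself was close to the detection floor in all groups and was not among the tested genes. It read 0 and 0.0303 FPKM in Trpm5-/- cells with LPS, 0.0236 and 0.0184 FPKM in unstimulated Trpm5-/- cells, 0.434 and 0.321 FPKM in wild-type cells with LPS, and 0.0196 and 0.210 FPKM in unstimulated wild-type cells. With LPS both wild-type libraries lay above both Trpm5-/- libraries, whereas without stimulus one wild-type library lay within the range of the Trpm5-/- libraries. These values check the genotype labels only weakly.

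The libraries summed to 563461 to 805373 FPKM with 12737 to 13483 symbols above 0, and the 4 LPS libraries were mostly shallower (0.644 to 0.838 of the depth of wild-type unstimulated replicate 1) than the 4 unstimulated ones (0.826 to 1.05). Ms4a1, a surface protein gene of mature B cells, read 295 to 493 FPKM in the 8 libraries, and Cd9 and Cr2, which mark marginal zone B cells, read 241 to 472 and 33.9 to 87.4 FPKM. Fcer2a, which is high on follicular B cells, reached 83.5 to 937 FPKM. Cd3e of T cells read at most 0.188 FPKM, Ncr1 of NK cells at most 0.0784 FPKM and Csf1r of macrophages at most 0.824 FPKM, while Alas2 of erythroid cells read 10.3 to 23.96 FPKM. In bulk RNA fewer cells of a type and less RNA per cell cannot be told apart.

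LPS moved most of the measured transcriptome in both genotypes, nearly always in the same direction. In Trpm5-/- cells 7413 of 10797 genes passed the test for a response (68.7%; 34.8% rose and 33.8% fell), and in wild-type cells 7489 (69.4%; 35% rose and 34.4% fell; limma, Benjamini-Hochberg adjusted p under 0.05). Of the 6640 genes called in both genotypes, 3434 rose in both and 3200 fell in both, and 6 moved in opposite directions. A further 773 genes passed in Trpm5-/- cells alone and 849 in wild-type cells alone, which does not show that their responses differed. Across genes the responses of the genotypes correlated with Pearson r = 0.868. They come from separate libraries, and genes are not independent replicates. The SD of the response across genes was 1.06 in Trpm5-/- cells and 1.07 in wild-type cells, and the SD of the interaction was 0.55. The interaction lay within 1.5-fold in either direction for 10152 genes (94.0%).

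**Figure D1:**
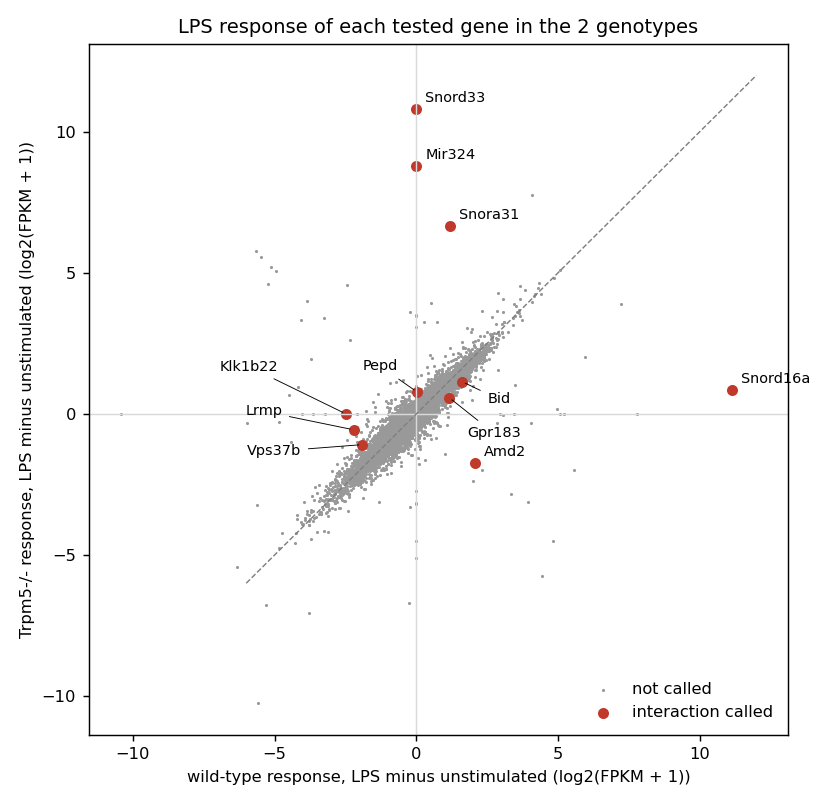
LPS response of each of the 10797 tested genes, Trpm5-/- cells on the vertical and wild-type cells on the horizontal axis, both as LPS minus unstimulated on the log2(FPKM + 1) scale (means of 2 libraries). The dashed line marks equal responses, and the 11 genes called for the interaction are named in red: 7 lie above the line and 4 below it.

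The test of the interaction called 11 of 10797 genes (0.102%; limma, adjusted p under 0.05), 7 higher in Trpm5-/- cells (0.0648%) and 4 lower (0.0370%). Without adjustment 1113 genes had a p under 0.05 (10.3%), 444 of them higher (4.11%) and 669 lower (6.2%). The called genes were Lrmp, Vps37b, Pepd, Klk1b22 and the small RNA genes Snord33, Mir324 and Snora31 among those higher, and Gpr183, Bid, Amd2 and the small RNA gene Snord16a among those lower. In all 11 the responses of the libraries did not overlap between genotypes, as was so for 2623 of all tested genes (24.3%; 10.8% higher and 13.5% lower). For a called gene this adds no support, since the call rests on the same values. The median half-width of the 95% interval of an interaction was 0.41 on the log2 scale, and 0.35 among genes with at least 5 FPKM in a group, while the smallest called interaction was 0.46. Interactions smaller than that were not called with 2 libraries a group.

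Some of these genes have sequences that help a reader place them. Mir324 encodes the microRNA miR-324, and its mature arms are shown because the gene was listed at 0 in every library except those of Trpm5-/- cells with LPS. Its arms as RefSeq gives them (GRCm38.p6, plus strand, chr11:70012060-70012082 and chr11:70012095-70012114) are printed with the seed, bases 2 to 8, in capitals.
mmu-miR-324-5p: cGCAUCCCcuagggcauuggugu
mmu-miR-324-3p: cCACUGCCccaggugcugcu
The arms carry different seeds. The deposited value is of the gene and does not separate the arms, and a kit that makes full-length cDNA from polyadenylated RNA does not measure mature microRNAs.

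Of the 7 called genes that are not small RNA genes, 5 had a RefSeq promoter, here the 250 bases before and 50 bases after the start. The promoters of Pepd, called higher, and of Gpr183 and Bid, called lower, are shown because these 3 genes were well above the filter in every library.
Pepd promoter (GRCm38.p6, plus strand, chr7:34912157-34912456): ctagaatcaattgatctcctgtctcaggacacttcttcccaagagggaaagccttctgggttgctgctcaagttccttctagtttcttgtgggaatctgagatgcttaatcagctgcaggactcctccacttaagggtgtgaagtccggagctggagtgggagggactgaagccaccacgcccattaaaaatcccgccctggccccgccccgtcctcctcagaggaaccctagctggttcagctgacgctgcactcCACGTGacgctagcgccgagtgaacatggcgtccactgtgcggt
Gpr183 promoter (GRCm38.p6, minus strand, chr14:121965144-121965443): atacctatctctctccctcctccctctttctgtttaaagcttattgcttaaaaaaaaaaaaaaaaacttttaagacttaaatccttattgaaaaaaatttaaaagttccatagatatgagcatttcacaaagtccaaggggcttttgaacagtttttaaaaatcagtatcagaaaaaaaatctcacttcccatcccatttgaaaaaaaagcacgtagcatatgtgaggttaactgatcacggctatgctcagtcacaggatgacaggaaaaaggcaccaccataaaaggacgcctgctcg
Bid promoter (GRCm38.p6, minus strand, chr6:120916775-120917074): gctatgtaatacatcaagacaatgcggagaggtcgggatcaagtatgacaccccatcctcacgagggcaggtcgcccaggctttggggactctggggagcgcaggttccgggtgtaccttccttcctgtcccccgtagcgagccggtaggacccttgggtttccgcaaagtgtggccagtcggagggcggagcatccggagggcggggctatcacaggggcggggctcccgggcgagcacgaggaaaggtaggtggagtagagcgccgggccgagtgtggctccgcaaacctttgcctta
The capitals in the Pepd promoter mark an E-box, CACGTG, the motif read by MYC and USF proteins. It occurs in 7.15% of 32851 promoters of this length. On both strands, none of the 5 promoters held the AP-1 motif TGANTCA (7.81% of all promoters), the NF-kB motif, GGGNN followed directly by TTNCC (4.79%), or the NFAT motif TGGAAA (21.4%). Only Pepd among the 5 held the E-box. A match describes the letters and not binding.

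Lrmp had the firmest interaction of a protein-coding gene. Lrmp (chromosome 6, 145115653 to 145174934, plus strand, mm10) encodes a lymphocyte protein of the endoplasmic reticulum membrane that binds IP3 receptors, the channels that release stored calcium. It read 42.9 and 44.2 FPKM in Trpm5-/- cells with LPS, 63.3 and 66.2 FPKM in unstimulated Trpm5-/- cells, 8.88 and 12.3 FPKM in wild-type cells with LPS, and 53.2 and 51.0 FPKM in unstimulated wild-type cells. Every Trpm5-/- library with LPS lay above every wild-type library with LPS, and the LPS libraries lay below the unstimulated ones in both genotypes. The response was -0.56 in Trpm5-/- cells and -2.21 in wild-type cells on the log2 scale, so the fall was smaller in Trpm5-/- cells by 1.65 ± 0.15 (SE; limma adjusted p = 0.00305). The genotype difference was 1.96 with LPS (limma adjusted p = 2.17e-05) and 0.31 without stimulus (adjusted p = 0.145). Lrmp was called under each of the 17 alternative settings tried, with interactions between 1.44 and 1.87.

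Vps37b, a subunit of the ESCRT-I complex that sorts ubiquitinated membrane proteins, also fell less in Trpm5-/- cells. Vps37b (chromosome 5, 124004641 to 124032270, minus strand) read 22.9 and 20.3 FPKM in Trpm5-/- cells with LPS, 44.8 and 49.2 FPKM in unstimulated Trpm5-/- cells, 17.1 and 18.1 FPKM in wild-type cells with LPS, and 67.3 and 69.5 FPKM in unstimulated wild-type cells. The 2 genotypes did not overlap in either condition, and the order was turned round by LPS. The interaction was 0.81 ± 0.11 (SE; limma adjusted p = 0.0332). The genotype difference passed the test without stimulus (-0.53, adjusted p = 0.00529) and not with LPS (0.28, adjusted p = 0.0866).

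Pepd rose with LPS in Trpm5-/- cells, whereas its wild-type response did not pass the test. It encodes prolidase, the enzyme that splits dipeptides ending in proline (chromosome 7, 34912379 to 35044708, plus strand). Pepd read 80.3 and 79.6 FPKM in Trpm5-/- cells with LPS, 47.9 and 44.8 FPKM in unstimulated Trpm5-/- cells, 47.4 and 40.9 FPKM in wild-type cells with LPS, and 43.8 and 42.3 FPKM in unstimulated wild-type cells. The 2 Trpm5-/- libraries with LPS stood above the other 6 libraries, which lay between 40.9 and 47.9 FPKM. With anti-IgM, Pepd read 83.3 and 80.0 FPKM in Trpm5-/- cells and 72.1 and 71.3 FPKM in wild-type cells. The response was 0.77 in Trpm5-/- cells (limma adjusted p = 4.4e-06) and 0.03 in wild-type cells (adjusted p = 0.71), and the interaction was 0.74 ± 0.10 (SE; limma adjusted p = 0.0336).

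Klk1b22, a tissue kallikrein gene of a family of near-identical serine protease genes on chromosome 7 (44112673 to 44116922, plus strand), was listed at 0 in all Trpm5-/- libraries. It read 3.47 and 1.44 FPKM in wild-type cells with LPS and 18.4 and 16.6 FPKM in unstimulated wild-type cells. The called interaction of 2.48 ± 0.36 (SE; limma adjusted p = 0.0450) is the fall in wild-type cells set against a gene listed at 0 in both conditions. Klk1b22 passed the filter only through wild-type cells, so any wild-type response had to appear as an interaction. Its call says nothing about how Trpm5-/- cells respond to LPS. Reads may be split among family members, so the value is uncertain. Trpm5 lies on the same chromosome (143069153 to 143094642, minus strand), as do 3 of the 11 called genes (Klk1b22, Pepd and Snord33) and 7.53% of the 10381 tested genes with a position. Of these, Klk1b22 passed the filter only through wild-type cells and Snord33 only through Trpm5-/- cells with LPS. Why genes of this chromosome were called was not tested.

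Gpr183 rose less in Trpm5-/- cells. It encodes EBI2, the oxysterol receptor that positions B cells within the spleen (chromosome 14, 121952551 to 121965195, minus strand). Gpr183 read 84.3 and 85.3 FPKM in Trpm5-/- cells with LPS, 56.5 and 56.3 FPKM in unstimulated Trpm5-/- cells, 137 and 148 FPKM in wild-type cells with LPS, and 61.6 and 64.9 FPKM in unstimulated wild-type cells. All 4 groups were apart, with the widest gap between the genotypes under LPS. The response was 0.58 in Trpm5-/- cells and 1.16 in wild-type cells, an interaction of -0.58 ± 0.08 (SE; limma adjusted p = 0.0400).

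Bid, a BH3-only protein that links death receptors to mitochondrial apoptosis, also rose less (chromosome 6, 120891930 to 120916853, minus strand). Bid read 187 and 183 FPKM in Trpm5-/- cells with LPS, 83.3 and 82.6 FPKM in unstimulated Trpm5-/- cells, 215 and 214 FPKM in wild-type cells with LPS, and 69.8 and 69.4 FPKM in unstimulated wild-type cells. Trpm5-/- cells were the higher genotype without stimulus and the lower one with LPS, with no overlap in either condition. The genotype difference was -0.21 with LPS (limma adjusted p = 0.0301) and 0.25 without stimulus (adjusted p = 0.0132). The interaction was -0.46 ± 0.06 (SE; limma adjusted p = 0.0336).

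Amd2 had the lowest interaction of a protein-coding gene that was called. Amd1 and its near-identical copy Amd2 (chromosome 10, 35708675 to 35711892, minus strand) both stand for S-adenosylmethionine decarboxylase, an enzyme of polyamine synthesis. Amd2 read 5.93 and 2.44 FPKM in Trpm5-/- cells with LPS, 14.4 and 16.3 FPKM in unstimulated Trpm5-/- cells, 75.9 and 68.2 FPKM in wild-type cells with LPS, and 21.8 and 12.5 FPKM in unstimulated wild-type cells. Its interaction was -3.80 ± 0.51 (SE; limma adjusted p = 0.0332), and it fell in Trpm5-/- cells and rose in wild-type cells. The copy Amd1, looked up after the values of Amd2 were seen, read 94.4 and 100 FPKM in Trpm5-/- cells with LPS, 25.1 and 19.2 FPKM in unstimulated Trpm5-/- cells, 17.7 and 32.3 FPKM in wild-type cells with LPS, and 14.3 and 20.2 FPKM in unstimulated wild-type cells. Amd1 was thus high where Amd2 was low under LPS. Summed, the copies responded by 1.42 in Trpm5-/- cells and 1.47 in wild-type cells, a difference of -0.06. How fragments were divided between the copies was not tested.

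**Figure D2:**
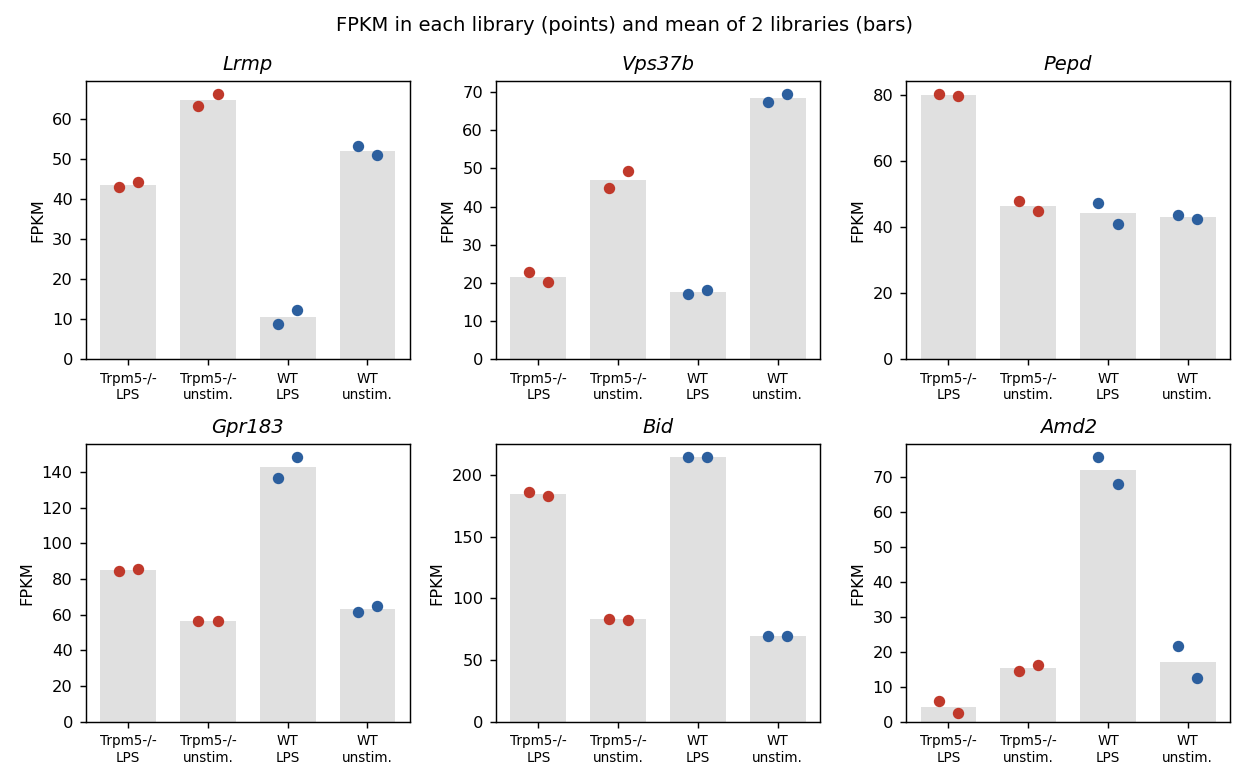
FPKM of 6 called genes in each library (points) and the mean of 2 libraries (bars), with Trpm5-/- cells in red, wild-type cells in blue, and LPS left of unstimulated within each genotype. Lrmp stays at 42.9 and 44.2 FPKM in Trpm5-/- cells with LPS against 8.88 and 12.3 FPKM in wild-type cells with LPS, and Pepd is higher in Trpm5-/- cells with LPS than in the other 3 groups shown.

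Apart from Lrmp, none of these 6 protein-coding calls held under all alternatives. Of 17 settings, Vps37b and Bid were called under 7, Pepd and Amd2 under 6 and Gpr183 under 4, and Klk1b22 under 3 of 16. The direction was kept in all of them, and their adjusted p reached at most 0.199. All 6 calls ended with no variance trend and with only the 8 unstimulated and LPS libraries. They also ended without either unstimulated Trpm5-/- library, without unstimulated wild-type replicate 2 and without wild-type LPS replicate 2. Leaving out any other of the 8 libraries also ended the call of Gpr183. Vps37b kept its call without either Trpm5-/- LPS library, Pepd and Klk1b22 without wild-type LPS replicate 1, Bid without Trpm5-/- LPS replicate 1, and Amd2 without that library or without unstimulated wild-type replicate 1.

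The 4 small RNA genes had the interactions of greatest size among the 11 called genes, on values that were either 0 or high. Mir324 (chromosome 11, 70012043 to 70012131, plus strand) read 386 and 497 FPKM in Trpm5-/- cells with LPS and was listed at 0 in the other 10 libraries, an interaction of 8.78. Snord33, a box C/D snoRNA that guides methylation of ribosomal RNA, likewise read 1124 and 2893 FPKM in Trpm5-/- cells with LPS and 0 elsewhere, an interaction of 10.82. Both passed the filter on low values only through the group where they are high, so they had to differ, and their calls support nothing. Snord16a read 2454 and 394.7 FPKM in Trpm5-/- cells with LPS, 1231 and 240.1 FPKM in unstimulated Trpm5-/- cells, 2634 and 1901 FPKM in wild-type cells with LPS, and 0 in both unstimulated wild-type libraries (-10.27 ± 1.15, limma adjusted p = 0.0115). Snora31, an H/ACA snoRNA outside the rule for named genes and named after its value was seen, was at 0 only in the 2 unstimulated Trpm5-/- libraries (5.48 ± 0.64, limma adjusted p = 0.0131). Its call ended without any 1 of the 4 unstimulated libraries, with adjusted p up to 0.0827. That of Snord16a ended without wild-type LPS replicate 1 (limma adjusted p = 0.0580) or unstimulated wild-type replicate 2 (0.0670).

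Values of such genes are coarse. Among 427 other small RNA symbols within 10 bases of the length of Mir324, 3.20% of values were above 0, and the lowest of those was 29.3 FPKM. For Snord33 the share was 2.82% and the lowest value again 29.3 FPKM. What sets a small RNA gene at 0 or at a high value was not tested. The folds of genes listed at 0 are not given.

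Genes next to the threshold were taken to make up 10 in each direction. These 13 genes, none of them called, had adjusted p-values from 0.0635 to 0.112. On the higher side stood Cmah, which makes the sialic acid Neu5Gc (interaction 1.29), Gramd1a, a sterol transporter of the endoplasmic reticulum (0.90), Gnptg, a subunit of the enzyme that tags lysosomal proteins (0.90), Pkmyt1, a kinase that restrains CDK1 (0.87), the adaptor gene Sh2d2a (0.61) and the NF-kB target Gadd45b (0.53). Gramd1a read 25.4 and 28.6 FPKM in Trpm5-/- cells with LPS, 44.9 and 48.3 FPKM in unstimulated Trpm5-/- cells, 33.3 and 34.7 FPKM in wild-type cells with LPS, and 106 and 115 FPKM in unstimulated wild-type cells. Its genotypes were furthest apart before stimulation (genotype difference -1.23 without stimulus, limma adjusted p = 0.000218, and -0.33 with LPS, adjusted p = 0.126).

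On the lower side stood Atf7ip, a cofactor of histone methylation (-0.80), Ccng2, cyclin G2 (-0.68), Spib, an Ets factor of B cells (-0.50), Bcap29 (-0.49), Copb2 of the COPI coat (-0.42), Shmt2, the mitochondrial serine hydroxymethyltransferase (-0.39), and Tmem123 (-0.38). Spib read 89.2 and 86.6 FPKM in Trpm5-/- cells with LPS, 127 and 138 FPKM in unstimulated Trpm5-/- cells, 47.4 and 45.4 FPKM in wild-type cells with LPS, and 49.3 and 49.4 FPKM in unstimulated wild-type cells. It was higher in Trpm5-/- cells in both conditions (genotype difference 0.91 with LPS and 1.41 without, limma adjusted p = 7.1e-05 and 3.93e-06), and its response was -0.59 in Trpm5-/- cells and -0.09 in wild-type cells (interaction, limma adjusted p = 0.0838).

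**Figure D3:**
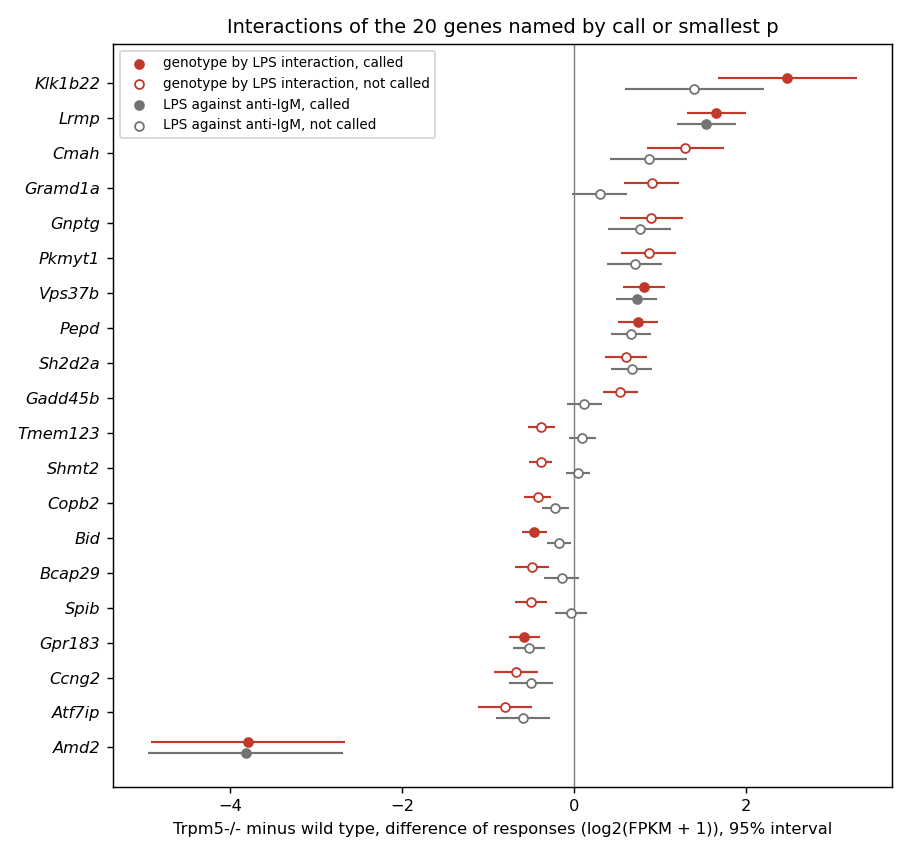
Difference of responses, Trpm5-/- minus wild type, with 95% intervals for the 20 genes named by call or by smallest p, small RNA genes left out. Red is LPS against unstimulated (the interaction), grey is LPS against anti-IgM, and filled points passed the test. Lrmp lies at 1.65 and 1.54 on the 2 measures.

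To see whether a genotype difference belonged to LPS and not to any stimulus, the response difference was also taken between LPS and anti-IgM, with no unstimulated library in it. Both measures use the same LPS libraries, so they are given side by side. That test called 12 of 10797 genes (0.111%; limma), against 3 called for the interaction with anti-IgM (0.0278%), and 1058 had an unadjusted p under 0.05 (9.80%). Lrmp was called here too (1.54 ± 0.15 (SE), limma adjusted p = 0.00446). With anti-IgM it read 167 and 168 FPKM in Trpm5-/- cells and 122 and 127 FPKM in wild-type cells, above all LPS libraries, and its interaction with anti-IgM was 0.12 (limma adjusted p = 0.887). Vps37b was called at 0.73 (limma adjusted p = 0.0494), and its interaction with anti-IgM was 0.08. This call of Vps37b ended without any 1 of the 8 LPS and anti-IgM libraries (limma adjusted p up to 0.197). Pepd (0.66, limma adjusted p = 0.0580) and Gpr183 (-0.52, limma adjusted p = 0.0613) were not called, and neither was Bid (-0.17, limma adjusted p = 0.422).

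Ccl3, the chemokine MIP-1 alpha, was called for LPS against anti-IgM and not for LPS against unstimulated. It read 193 and 187 FPKM in Trpm5-/- cells with LPS, 47.5 and 51.4 FPKM in unstimulated Trpm5-/- cells, 145 and 150 FPKM in wild-type cells with LPS, and 27.9 and 24.4 FPKM in unstimulated wild-type cells. With anti-IgM it read 145 and 134 FPKM in Trpm5-/- cells and 65.4 and 65.2 FPKM in wild-type cells. Trpm5-/- cells were higher in all 3 conditions, and least so in proportion with LPS. The difference was -0.72 against anti-IgM (limma adjusted p = 0.0378) and -0.53 against unstimulated (limma adjusted p = 0.126). This call of Ccl3 ended without any 1 of the 8 LPS and anti-IgM libraries (limma adjusted p up to 0.194). The neighbouring gene Ccl4, looked up after Ccl3 was seen, had -0.51 and -0.09, neither called (limma adjusted p = 0.110 and 0.793).

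Of 24 tested cytokine and chemokine genes, 17 rose and 5 fell with LPS in Trpm5-/- cells, and 16 rose and 5 fell in wild-type cells. Over all tested genes 34.8% rose and 33.8% fell in Trpm5-/- cells, and 35% rose and 34.4% fell in wild-type cells. No cytokine or chemokine gene was called for the interaction, and the median interaction was 0.04, against -0.02 over all tested genes, with a range of -0.09 to 0.16 over the alternatives. Il6 read 94.7 and 83.0 FPKM in Trpm5-/- cells with LPS, 2.02 and 2.28 FPKM in unstimulated Trpm5-/- cells, 53.3 and 55.2 FPKM in wild-type cells with LPS, and 0.837 and 0.995 FPKM in unstimulated wild-type cells. Trpm5-/- libraries were higher in both conditions, and the responses were 4.83 in Trpm5-/- cells and 4.85 in wild-type cells, an interaction of -0.02 with a 95% interval of -0.63 to 0.59. With a pseudocount of 0.1 the interaction of Il6 was -0.44 (limma adjusted p = 0.814). Il10, which dampens inflammation, read 37.4 and 26.4 FPKM in Trpm5-/- cells with LPS, 9.53 and 9.26 FPKM in unstimulated Trpm5-/- cells, 19.7 and 16.9 FPKM in wild-type cells with LPS, and 8.11 and 7.73 FPKM in unstimulated wild-type cells. Its interaction was 0.53 with a 95% interval of 0.03 to 1.04 (limma adjusted p = 0.461). That of Cxcl10, a chemokine that attracts T cells, was 0.89 with an interval of -0.32 to 2.11 (limma adjusted p = 0.616). Others were 1.31 for Il1a, -0.40 for Ltb, 0.41 for Il1b and -0.62 for Tnf, none called.

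Interferon-stimulated genes lay mostly above 0. Of 34 tested, 6 rose and 14 fell in Trpm5-/- cells, and 6 rose and 21 fell in wild-type cells. Over all tested genes 34.8% rose and 33.8% fell in Trpm5-/- cells, and 35% rose and 34.4% fell in wild-type cells. The median interaction was 0.25, with a range of 0.16 to 0.41 over the alternatives, which reuse the same libraries. The SD of the list's median level between libraries of a group, combined over the 4 groups, was 0.335. That SD is for single libraries, and the interaction rests on means of 2. Of the 34, 29 lay above 0 (85.3%, against 46.8% of all genes), none called. Genes of a list are not independent replicates. Ifih1, which senses viral RNA, rose in both genotypes (response 1.88 in Trpm5-/- cells and 1.21 in wild-type cells, interaction 0.67). Cmpk2 (0.91) and Ifit2 (0.94) had lower levels with LPS in wild-type cells and a smaller difference in Trpm5-/- cells. The macrophage and monocyte list lay on the same side: 9 of its 11 tested members lay above 0, with a median of 0.43. That median ran from 0.14, without Trpm5-/- LPS replicate 1, to 0.58, with a pseudocount of 0.1. The SD between libraries, combined in the same way, was 0.665 for this list. Its summed FPKM was 331 and 338 in Trpm5-/- cells with LPS, 146 and 147 in unstimulated Trpm5-/- cells, 169 and 205 in wild-type cells with LPS, and 113 and 105 in unstimulated wild-type cells. The part of those cells in the shift was not tested.

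**Figure D4:**
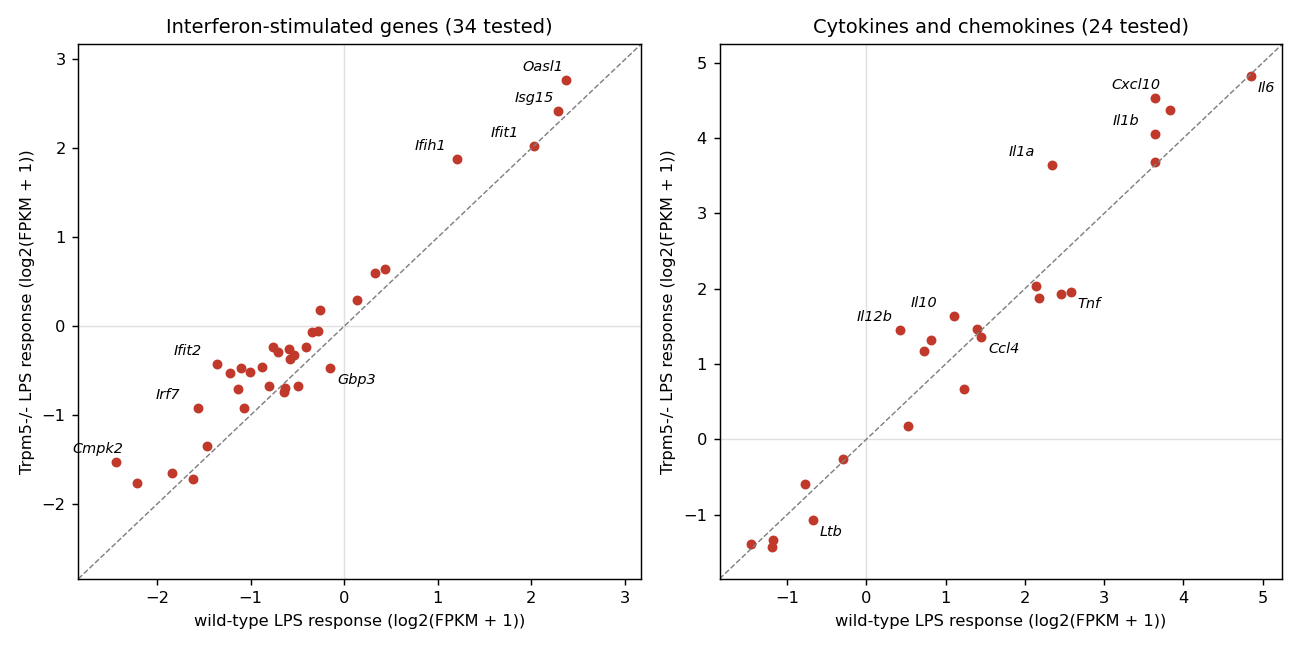
LPS responses of tested interferon-stimulated genes (left) and of cytokine and chemokine genes (right), Trpm5-/- cells on the vertical and wild-type cells on the horizontal axis, on the log2(FPKM + 1) scale. The dashed line marks equal responses: 29 of 34 interferon-stimulated genes lie above it, and Il6 lies on it at 4.83 and 4.85.

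NF-kB targets rose with LPS in both genotypes: 28 of 29 rose in Trpm5-/- cells and 28 of 29 in wild-type cells. Over all tested genes 34.8% rose in Trpm5-/- cells and 35% in wild-type cells. The median response of the list was 2.002 in Trpm5-/- cells and 1.938 in wild-type cells. The median interaction was 0.09 and no member was called. Nfkbie, an inhibitor of NF-kB, had 0.28 and Tnip1, a partner of A20, had 0.55. Among genes of TLR4 signalling, 21 of 29 lay below 0 with a median of -0.08. Ly96, which encodes MD-2, read 42.9 and 34.3 FPKM in Trpm5-/- cells with LPS, 93.0 and 80.7 FPKM in unstimulated Trpm5-/- cells, 43.8 and 38.6 FPKM in wild-type cells with LPS, and 51.3 and 51.4 FPKM in unstimulated wild-type cells. The genotypes overlapped with LPS and not without, and its interaction was -0.84 (limma adjusted p = 0.174). Immediate early genes (median -0.02), feedback inhibitors (-0.03), B cell receptor signalling (-0.05) and calcineurin and NFAT genes (-0.02) had no called gene. The median of the feedback inhibitors changed sign under 7 alternatives and reached 0.16, and those of the immediate early genes and of the calcineurin and NFAT genes changed sign under 3 each.

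Calcium handling had 1 called gene, Lrmp, among 23 tested, where 0.102% of all tested genes were called. The lists were chosen with earlier results of these data known, so 1 call does not test the list. The median interaction of the list was 0.17, with 13 members above 0 and 10 below, and its sign changed with a filter of a mean of at least 5 FPKM and without Trpm5-/- LPS replicate 2. Most members fell with LPS: 15 of 23 in Trpm5-/- cells, against 33.8% of all tested genes, and 18 of 23 in wild-type cells, against 34.4%. The IP3 receptor genes Itpr2 (interaction 0.77, limma adjusted p = 0.210) and Itpr1 (0.56, limma adjusted p = 0.406) lay above 0, and Itpr3 lay at -0.27. Itpr2 read 3.43 and 3.02 FPKM in Trpm5-/- cells with LPS, 8.14 and 8.44 FPKM in unstimulated Trpm5-/- cells, 4.02 and 3.22 FPKM in wild-type cells with LPS, and 15.7 and 16.8 FPKM in unstimulated wild-type cells. The genotypes overlapped with LPS, so the gap lay in the unstimulated cells. The store-operated channel genes Stim1 (0.28) and Orai1 (-0.05) and the monovalent cation channel gene Trpm4 (0.40) were not called.

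Interactions of growth genes lay mostly below 0, and their median genotype differences were above 0 in unstimulated cells. The interaction is the genotype difference with LPS minus that without stimulus, so these observations share the unstimulated libraries and are not independent. Over all tested genes the median genotype difference was 0.019 with LPS and 0.022 without stimulus. Of 29 tested genes of ribosome biogenesis, all 29 rose in both genotypes, against 34.8% of all tested genes in Trpm5-/- cells and 35% in wild-type cells. In this list 25 genes had an interaction below 0, and the median was -0.14. The median genotype difference was 0.12 with LPS and 0.25 without stimulus. Sterol synthesis genes had a median interaction of -0.17 with 21 of 24 below 0, and genotype differences of 0.22 with LPS and 0.41 without. Cyp51, the sterol demethylase, had -0.34 (limma adjusted p = 0.168). Genes of the unfolded protein response (-0.14, 18 of 21 below 0), glycolysis (-0.11, 17 of 21 below 0) and oxidative phosphorylation (-0.09, 24 of 27 below 0) lay on the same side. None of these genes was called, and of all tested genes 46.8% were above 0. The SD of the list's median level between libraries, combined as above, was 0.145 for ribosome biogenesis and 0.105 for sterol synthesis. It was 0.145 for the unfolded protein response, 0.088 for glycolysis and 0.102 for oxidative phosphorylation. Genes of a list are not independent replicates, so the counts below 0 do not measure certainty. The tilt was not particular to growth genes: 21 of 29 genes of TLR4 signalling, 16 of 21 activation surface proteins and 10 of 12 pan-B genes lay below 0. Interferon-stimulated genes lay mostly above it.

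Mitotic genes had the lowest median interaction of the functional lists, -0.29, with 18 of 23 below 0 and none called. With LPS 19 fell in Trpm5-/- cells and 16 fell in wild-type cells, and none passed as rising. Of all tested genes 33.8% fell and 34.8% rose in Trpm5-/- cells, and 34.4% fell and 35% rose in wild-type cells. The median genotype difference was 0.32 with LPS and 0.67 without stimulus. The SD of the list's median level between libraries, combined as above, was 0.211. Ccnb2, a mitotic cyclin, read 4.65 and 4.65 FPKM in Trpm5-/- cells with LPS, 25.6 and 23.1 FPKM in unstimulated Trpm5-/- cells, 4.35 and 5.67 FPKM in wild-type cells with LPS, and 15.1 and 12.3 FPKM in unstimulated wild-type cells. The genotypes overlapped with LPS and were apart without it, and the interaction was -0.87 (limma adjusted p = 0.182). Kif23, a motor of the cell division midzone, had -0.86 and Birc5, survivin, had -0.54. Genes of cell cycle entry and DNA replication had a median of -0.06, with Ccnd2, the cyclin of B cell growth, at -0.40.

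**Figure D5:**
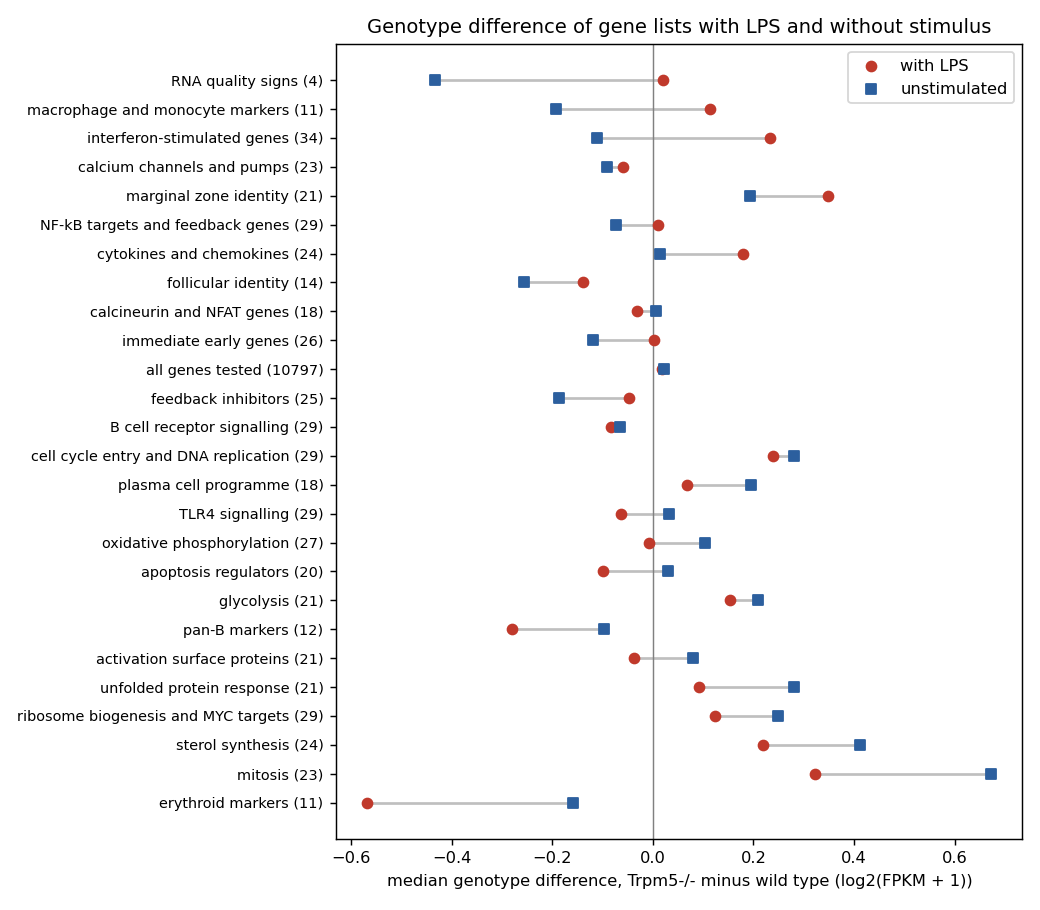
Median genotype difference, Trpm5-/- minus wild type on the log2(FPKM + 1) scale, of gene lists with LPS (red circles) and unstimulated (blue squares), with the number of tested genes in brackets. Lists are ordered by median interaction, and mitotic genes lie at 0.32 with LPS and 0.67 unstimulated.

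Genes that mark B cell subsets gave 1 call. Of 21 marginal zone genes, 13 lay above 0 with a median of 0.14, and none was called for the interaction. For the genotype difference within a condition, 7 of them passed as higher in Trpm5-/- cells with LPS and 5 without stimulus (limma). None passed as lower. Of all 10797 tested genes, 196 passed as higher and 192 as lower with LPS, and 481 and 179 without stimulus. Asb2, a ubiquitin ligase subunit, had 1.27 (limma adjusted p = 0.0902), on levels of 3.05 and 3.01 FPKM in Trpm5-/- cells with LPS, 2.27 and 2.61 FPKM in unstimulated Trpm5-/- cells, 1.12 and 1.13 FPKM in wild-type cells with LPS, and 3.36 and 3.35 FPKM in unstimulated wild-type cells. Plxnd1, a semaphorin receptor, had 0.96 (limma adjusted p = 0.214), and 0.24 with a pseudocount of 0.1 (limma adjusted p = 0.884). Follicular genes had a median of -0.002, with Gpr183 the 1 call among 14, where 0.102% of all tested genes were called. The lists were chosen with earlier results of these data known, so 1 call does not test the list. Of the 14, 6 passed as lower in Trpm5-/- cells with LPS and 6 without stimulus, and none as higher. Their median genotype difference was -0.14 with LPS and -0.26 without. The part of these subset differences in the interactions was not tested. Pan-B genes had a median of -0.12 with 10 of 12 below 0, among them Ms4a1, which encodes CD20 (-0.34), and Cd79b of the B cell receptor (-0.35). Activation surface proteins (-0.13) and the plasma cell programme (-0.07) had no calls.

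Bid was the 1 call among 20 apoptosis regulators, whose median was -0.10, where 0.102% of all tested genes were called. This list too was chosen with earlier results of these data known, so 1 call does not test it. Bcl2, which blocks apoptosis, had 0.52 and Birc2, an inhibitor of apoptosis, had -0.39, neither called.

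Markers of other cells were mostly too low to test: 4 of 17 T cell, 1 of 10 NK cell, 1 of 11 neutrophil, 1 of 8 platelet and 1 of 13 stromal and endothelial markers passed the filter, with no call. The 7 dendritic cell markers tested had a median of 0.08. Erythroid markers had a median of -0.44 with 8 of 11 below 0, and summed to 329 and 330.5 FPKM in Trpm5-/- cells with LPS, 554 and 599.5 FPKM in unstimulated Trpm5-/- cells, 527 and 623 FPKM in wild-type cells with LPS, and 831 and 794 FPKM in unstimulated wild-type cells. The nuclear RNAs Neat1 (0.63) and Malat1 (0.34), read here as signs of RNA quality, were not called (limma adjusted p = 0.197 and 0.437). The 4 tested signs of RNA quality had a median genotype difference of -0.43 without stimulus and 0.02 with LPS. Without stimulus 2 of the 4 passed as lower in Trpm5-/- cells (limma), as did 179 of all 10797 tested genes. None of the 4 passed with LPS. The part of these markers and signs in the interactions was not tested.

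Genes called in both responses but in opposite directions numbered 6, and all are named after their values were seen: Amd2, Fcer1g, Fgl2, Gm8817, Pbk and Usp21. Amd2 alone was called for the interaction. Summed with its near-identical copy Amd1, it rose in both genotypes, by 1.42 in Trpm5-/- cells and 1.47 in wild-type cells. The others had interactions from -1.54 for Fgl2, a secreted inhibitor of immunity, to 2.06 for the predicted gene Gm8817, with limma adjusted p-values from 0.0867 to 0.222. Fcer1g, the Fc receptor gamma chain, averaged 1.94 FPKM in Trpm5-/- cells with LPS, 0.367 FPKM in unstimulated Trpm5-/- cells, 1.75 FPKM in wild-type cells with LPS and 4.46 FPKM in unstimulated wild-type cells. Pbk, a mitotic kinase, averaged 11.9 FPKM in Trpm5-/- cells with LPS, 15.4 FPKM in unstimulated Trpm5-/- cells, 7.72 FPKM in wild-type cells with LPS and 5.22 FPKM in unstimulated wild-type cells.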

How the data were processed

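Total RNA of marginal zone B cells was turned into full-length cDNA (SMART-Seq HT) and Nextera libraries, per the labels' protocols. Tools named in the submitters' processing notes are Cufflinks 2.2.1, SAMtools 0.1.19, Bowtie2 2.2.3 and TopHat2 2.0.13, with build mm10. The gene annotation is not stated there. The authors deposited 1 value per symbol and library, taken as FPKM from those tools and from the values, since the files do not name the unit. Read totals were not used, so depth is known only relative to 1 library. No further scaling was applied.

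Values were analysed as log2(FPKM + 1), which understates changes of low genes. limma 3.58.1 (R 4.3.3) fitted 6 group means to 12 libraries with a mean-variance trend in eBayes and 6 residual degrees of freedom. Each test was 2-sided. Calls needed an adjusted p (Benjamini-Hochberg over 10797 genes) under 0.05. Members, 31 gene lists and named genes were chosen with earlier results of these data known. Named genes were called genes with at least 5 FPKM in a group (up to 15 a direction, made up to 10 by smallest p; predicted genes and receptor segments left out), 2 small RNA genes a direction, 3 members of smallest p a list, and Il6, Il10, Cxcl10 and Trpm5. Positions are from GENCODE M21. Alternatives were another pseudocount, filter, scaling or variance model, fewer libraries, a replicate block and leaving out each library.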

Additional observations from a re-analysis of the deposited data

Results flagged for a closer look

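A test of the difference between genotypes in the response to LPS passed the threshold for 11 genes, with these interactions (Trpm5-/- minus wild type, log2(FPKM + 1), limma adjusted p under 0.05): Lrmp 1.65, Vps37b 0.81, Pepd 0.74, Klk1b22 2.48, Snord33 10.82, Mir324 8.78, Snora31 5.48, Gpr183 -0.58, Bid -0.46, Amd2 -3.80 and Snord16a -10.27. Amd2 summed with its near-identical copy Amd1 gave a difference of -0.06.

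The genotype difference between the LPS and anti-IgM responses passed, among the named genes, for Lrmp (1.54), Vps37b (0.73), Snord33 (10.82), Mir324 (8.78), Amd2 (-3.83) and Ccl3 (-0.72). Snord33 and Mir324 were listed at 0 in all unstimulated and anti-IgM libraries, so their values here repeat the interaction and add nothing to it. They entered the tests only through Trpm5-/- cells with LPS. For Ccl3 the test against unstimulated cells did not pass.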

How the results depend on the processing

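The 11 calls became 4 with no variance trend, 5 with the 8 unstimulated and LPS libraries alone, and 3 to 23 without 1 library (3 without unstimulated wild-type replicate 2, 23 without Trpm5-/- LPS replicate 1). The 7 higher calls became 4, 4 and 3 to 8, and the 4 lower calls became 0, 1 and 0 to 15. For LPS against anti-IgM, the 12 calls became 4 to 17 without 1 library, the 9 higher 4 to 8 and the 3 lower 0 to 9. Those 3 were 0 with quantile normalization or no trend, and 6 with small RNA genes left out, an alternative chosen after seeing the data. The causes were not tested.

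The replicate numbers did not pair the libraries (correlations of deviations -0.172 to 0.149). With a replicate block, 6 genes were called for the interaction (1 lower) and 5 for LPS against anti-IgM (5 higher, 0 lower).

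Lrmp kept its call under all 17 alternatives. With a pseudocount of 0.1 the interaction of Il6 was -0.44 and that of Plxnd1 0.24. Of the values of named genes, 12 changed sign, all of genes not called and all without 1 library, whose interactions then ran as follows: Il6 -0.113 to 0.0755, Ccl4 -0.201 to 0.0155, Cd2 -0.0755 to 0.678, Il7r -0.16 to 0.559, Prf1 -0.0424 to 0.704, Itgb3 -0.221 to 0.0329 and Rmrp -0.0571 to 1.63.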
